A study of Mus musculus with 9 samples.

Results

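A set of 10 genes of glucose uptake, glycolysis and lactate export was followed in 9 RNA-sequencing libraries of mouse intestinal epithelium in culture. They were taken by symbol from the 50600 genes of the count table, and all 10 were found once, namely Slc2a1, Hk1, Hk2, Pfkl, Pfkp, Aldoa, Eno1, Pkm, Ldha and Slc16a3. The libraries came from wildtype (WT) small intestinal organoids of mice labelled C57BL/6 and aged 2 to 5 months kept for 24 hr in medium of which 50% was conditioned medium (cM), and from untreated tumoroids. Tumoroids are epithelial cultures grown from intestinal tumours of Apc1638N/+ mice, which carry a mutant allele of the Wnt pathway inhibitor Apc. By the labels these mice were of mixed strain and aged more than 6 months, while the methods of the study give a mixed background for all mice. There were 3 libraries per group, and the labels do not tie a library to a mouse, so the p-values measure the spread between these libraries. The deposited titles and treatment fields name opposite media for the 6 organoid libraries, so the groups are called T-cM-titled (medium of tumoroids, by title) and WT-cM-titled (medium of WT organoids, by title), and every sign in that comparison swaps if the treatment field holds. Genotype, age, medium and the labelled strain changed together between organoids and tumoroids, and cannot be told apart. The methods of the study give tumoroids EGF and Noggin, while the deposited growth protocol adds R-spondin for every sample.

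In glycolysis, glucose enters through transporters, is trapped by hexokinases, committed by phosphofructokinase, split by aldolase and carried through enolase and pyruvate kinase to pyruvate. Lactate dehydrogenase reduces pyruvate to lactate, which leaves the cell through monocarboxylate transporters. Many of these enzymes have isozymes with their own tissue distribution. Absorptive enterocytes use forms of their own at several steps, and many genes of the pathway are known targets of the hypoxia-inducible factor (HIF) and of Myc.

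The promoters of 3 of the genes are shown because Ldha fell most in tumoroids among the genes that passed, Slc16a3 varied most between replicate numbers, and Hk2 moved against most of the pathway. Each is a 300-base window (RefSeq, GRCm38.p6) from 250 bases before to 50 bases after an annotated start, read on the strand of the gene. Capitals mark ACGTG, the core of the hypoxia response element, or CACGT on the opposite strand. Both lie within the E-box CACGTG, which was counted as 1 site.
Ldha (chr7:46845554-46845853, + strand): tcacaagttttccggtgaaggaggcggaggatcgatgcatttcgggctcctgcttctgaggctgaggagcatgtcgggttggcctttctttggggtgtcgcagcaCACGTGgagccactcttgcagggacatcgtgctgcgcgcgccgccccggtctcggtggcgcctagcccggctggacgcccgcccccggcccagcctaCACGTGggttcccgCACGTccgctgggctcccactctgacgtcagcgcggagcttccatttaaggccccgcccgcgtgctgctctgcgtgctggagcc
Slc16a3 (chr11:120948817-120949116, + strand): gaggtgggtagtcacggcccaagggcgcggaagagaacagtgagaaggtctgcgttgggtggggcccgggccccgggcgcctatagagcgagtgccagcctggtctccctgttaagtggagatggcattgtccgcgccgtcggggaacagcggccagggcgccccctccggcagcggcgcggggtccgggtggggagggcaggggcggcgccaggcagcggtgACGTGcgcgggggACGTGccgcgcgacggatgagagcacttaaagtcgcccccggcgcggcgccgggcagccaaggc
Hk2 (chr6:82774405-82774704, - strand): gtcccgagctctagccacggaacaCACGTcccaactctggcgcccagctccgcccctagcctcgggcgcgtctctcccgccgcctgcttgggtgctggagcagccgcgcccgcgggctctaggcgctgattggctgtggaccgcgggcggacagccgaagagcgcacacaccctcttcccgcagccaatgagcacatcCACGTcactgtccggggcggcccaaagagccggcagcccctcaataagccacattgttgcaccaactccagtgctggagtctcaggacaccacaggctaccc
The Ldha window shown held 3 sites, of which 2 were E-boxes, and the other annotated Ldha window held 0. Where a gene had several windows, the one with the most sites was shown. The Slc16a3 and Hk2 windows held 2 sites each. Of all 32851 windows, 19.6% held at least 1 site, 2.69% held 2 or more, and 7.15% held CACGTG. Over genes, 7 of the 10 had a site in at least 1 of their windows (17 windows in all), and so had 21.8% of 27025 genes, counting any window of a gene. No site was found for Pfkl, Pfkp or Eno1 in these windows. A match describes the letters and does not show binding.

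Between 16541635 and 25170966 reads were counted per library. Levels are given as CPM, normalised counts scaled to library size with edgeR's TMM factors, or as TPM, the deposited values per gene length, where genes are compared. Normalisation factors were 0.89 to 0.96 in organoids and 1.19 to 1.22 in tumoroids, so small differences between them depend on the scaling. All 10 genes were among the 16208 tested. The epithelial label held in every library, with a summed TPM over 8 epithelial markers of 10500 to 15000 in organoids and 12000 to 13800 in tumoroids. As single genes, 4 of the 8 were lower in tumoroids (20.8% of all tested genes) and 1 was higher (29.6%), at an adjusted p of 0.05. Vil1 averaged 968 TPM in organoids and 314 TPM in tumoroids, and Krt18 averaged 931 and 3440 TPM. Markers of fibroblasts summed to at most 1.5 TPM, those of endothelium to at most 3.06 and those of red cells to at most 0.54, and Col3a1, Kdr and Cd3e had no count in any library. The exceptions were Acta2, a smooth muscle actin, at 92.5 TPM in tumoroid replicate 3, and Csf1r, a macrophage receptor, at 15.6 TPM in tumoroid replicate 2, where Ptprc, the pan-leukocyte gene, was at 0.14 TPM. The other smooth muscle markers Myh11, Des and Cnn1 averaged 0.0567, 0.04 and 0 TPM in tumoroids. Of the marker lists, that of enterocytes differed most, with a summed TPM over 8 genes of 27700 to 61300 in organoids and 58.2 to 405 in tumoroids. In bulk RNA, fewer cells of a type and less RNA per cell cannot be told apart. Apc read counts ranged from 2318 to 2658 in organoids and from 1753 to 3619 in tumoroids, and do not check the genotype, since the mutant allele is not told from the WT allele at this level.

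Tumoroids were first compared with both organoid groups together, to see how the pathway differs between normal and Apc-mutant epithelium. The hexokinase genes Hk1 and Hk2 were higher in tumoroids, by 4.46-fold and 3.00-fold. Ldha, Eno1, Pfkp and Pkm were lower, by 5.16-fold, 2.85-fold, 2.47-fold and 2.17-fold. Slc2a1, Pfkl, Aldoa and Slc16a3 did not pass the test at an adjusted p of 0.05. The 10 genes had a median log2 fold change of -0.84, against 0.165 over all tested genes. Of the 10 genes, 2 were higher (background 29.6% of all tested genes) and 4 were lower (background 20.8%), and all 6 were past a log2 fold change of 1 in size (background 33.1%). In the same 6 genes the tumoroid and organoid libraries did not overlap, which was so for 45.8% of all tested genes. Among all genes that passed at this adjusted p, 58.7% were higher in tumoroids, and 79.8% with limma on the deposited TPM. Read against these shares, the count of passing genes is near the background and is not a result about glycolysis. The sizes and directions of single genes are given next.

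**Figure D1:**
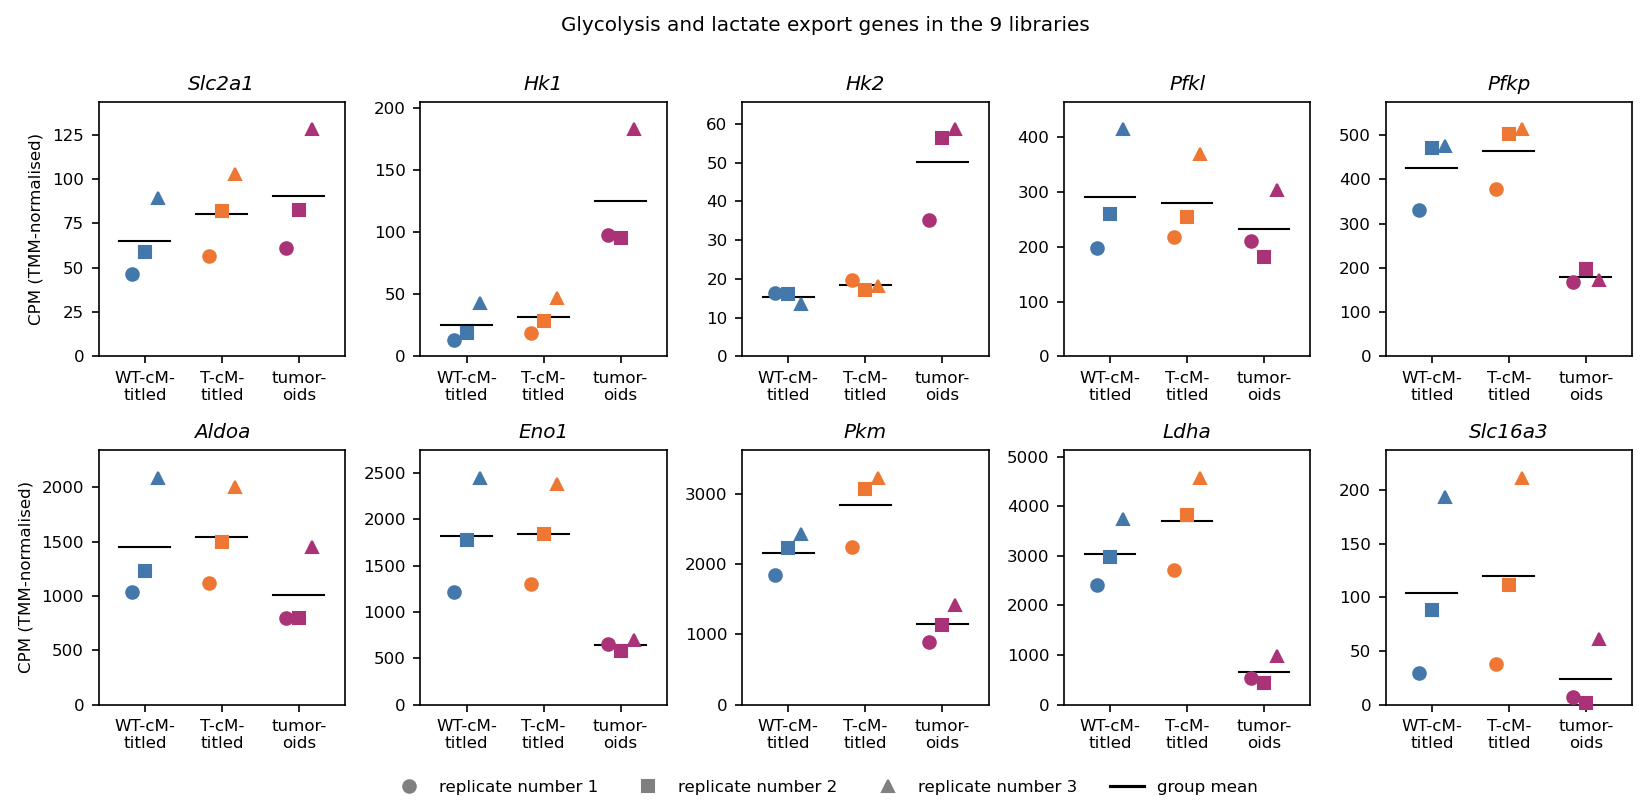
Normalised level of each of the 10 genes (CPM, linear axes from 0, a scale per gene) in the 9 libraries. Symbols mark the replicate number and black bars the group mean of 3 libraries. The tumoroid libraries lie above all organoid libraries for Hk1 and Hk2 and below them for Pfkp, Eno1, Pkm and Ldha, and replicate number 3 (triangles) is the highest of its group in most panels.

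Slc2a1 encodes GLUT1, the glucose transporter of proliferating cells. Its level was 46.7, 58.8 and 89.5 CPM in WT-cM-titled organoids, 56.4, 82.0 and 103 CPM in T-cM-titled organoids and 61.4, 82.6 and 128 CPM in tumoroids (replicates 1, 2 and 3 in each). The groups overlapped, and the difference between tumoroids and organoids was 0.33 on the log2 scale (SE 0.28, adjusted p = 0.36). Without tumoroid replicate 3 it came to -0.02 and again did not pass (adjusted p = 0.97). With limma on the deposited TPM it was 0.82 and passed (adjusted p = 0.027).

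Hk1 encodes the hexokinase found in most tissues, and Hk2 the inducible form that many tumours express. Hk1 was at 12.8, 18.9 and 43.1 CPM in WT-cM-titled organoids, 19, 28.9 and 47.0 CPM in T-cM-titled organoids and 97.8, 95.2 and 183 CPM in tumoroids. Every tumoroid library was above every organoid library, with a log2 fold change of 2.16 (SE 0.39, adjusted p = 0.0014). An antisense gene, Hk1os, overlaps Hk1 on the opposite strand with only 1 to 29 counts per library. Hk2 was at 16.3, 16 and 13.4 CPM in WT-cM-titled organoids, 19.6, 17.1 and 18.2 CPM in T-cM-titled organoids and 35.2, 56.4 and 58.6 CPM in tumoroids. Its groups were also apart, with a log2 fold change of 1.59 (SE 0.17, adjusted p = 6.2e-05).

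Phosphofructokinase is the committed step, and Pfkl and Pfkp encode its liver and platelet forms. Pfkl was at 198, 260 and 414 CPM in WT-cM-titled organoids, 217, 255 and 369 CPM in T-cM-titled organoids and 211, 181 and 304 CPM in tumoroids. These ranges overlapped, with a log2 fold change of -0.30 (SE 0.27, adjusted p = 0.40). With limma on the deposited TPM it was 0.24, the only 1 of 20 alternatives in which its sign turned. Pfkp was at 331, 471 and 476 CPM in WT-cM-titled organoids, 378, 502 and 513 CPM in T-cM-titled organoids and 169, 198 and 173 CPM in tumoroids. It fell in tumoroids, where the 3 libraries lay close together (log2 fold change -1.31, SE 0.18, adjusted p = 0.00024). Pfkp overlaps Pitrm1 on the opposite strand by 748 bases. The library kit keeps the strand, but whether the counting used it is not given in the sources used here.

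Aldoa, the aldolase of muscle and of dividing cells, was at 1040, 1230 and 2090 CPM in WT-cM-titled organoids, 1120, 1500 and 2000 CPM in T-cM-titled organoids and 794, 793 and 1450 CPM in tumoroids. The groups overlapped through tumoroid replicate 3 (log2 fold change -0.56, SE 0.31, adjusted p = 0.16). Without that library the difference was -0.93 with an adjusted p of 0.036. The retrocopies Aldoart1 and Aldoart2 had 0 to 5 counts per library.

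Eno1 encodes the enolase of most non-muscle and non-neuronal cells. Its level was 1220, 1780 and 2450 CPM in WT-cM-titled organoids, 1300, 1840 and 2380 CPM in T-cM-titled organoids and 654, 580 and 692 CPM in tumoroids. All tumoroid libraries were below all organoid libraries, with a log2 fold change of -1.51 (SE 0.27, adjusted p = 0.0013). The near-identical copy Eno1b went the other way, from 14 to 41 counts per organoid library to 1288, 1290 and 1701 counts in tumoroids. How reads were divided between Eno1 and Eno1b is uncertain. With their counts added the difference was -1.39 (adjusted p = 0.002).

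Pkm encodes the muscle-type pyruvate kinase, whose isoforms M1 and M2 are not told apart in counts per gene. It was at 1840, 2230 and 2420 CPM in WT-cM-titled organoids, 2240, 3070 and 3230 CPM in T-cM-titled organoids and 888, 1130 and 1420 CPM in tumoroids. It fell in tumoroids, with no overlap (log2 fold change -1.12, SE 0.22, adjusted p = 0.002). Gm49759, annotated within Pkm on the same strand, had 78 to 668 counts per library.

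Ldha encodes the lactate dehydrogenase subunit that favours lactate formation. It was at 2410, 2970 and 3750 CPM in WT-cM-titled organoids, 2720, 3820 and 4580 CPM in T-cM-titled organoids and 542, 437 and 973 CPM in tumoroids. The highest tumoroid library was far below the lowest organoid library (log2 fold change -2.37, SE 0.33, adjusted p = 0.00026). The pseudogene Ldha-ps2 had 3 to 28 counts per library.

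Slc16a3 encodes MCT4, the exporter of lactate from strongly glycolytic cells. Its level was 29.7, 88.5 and 194 CPM in WT-cM-titled organoids, 37.5, 112 and 212 CPM in T-cM-titled organoids and 7.25, 1.82 and 61.2 CPM in tumoroids. Tumoroid replicates 1 and 2 were below every organoid library, while replicate 3 lay above the organoid libraries numbered 1. The log2 fold change was -2.25 with a large error (SE 1.06, adjusted p = 0.10). Without tumoroid replicate 3 it was -4.66, with an adjusted p of 0.0046. With limma voom it was -3.17 (adjusted p = 0.038), and with limma on the deposited TPM -2.37 (adjusted p = 0.044). In tumoroid replicate 3, Acta2 was at 92.5 TPM and 17 HIF targets outside glycolysis summed to 3170 TPM, against 1000 and 1150 TPM in the other tumoroids, and their part in the result was not tested.

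Against each organoid group on its own the same 6 genes passed in the same directions, and Pkm against the WT-cM-titled group did not pass with limma on TPM (-0.40, adjusted p = 0.15). With the WT-cM-titled libraries as reference, 2 of the 10 were higher (background 23.4%) and 4 lower (background 18.5%), and with the T-cM-titled libraries 2 were higher (background 25.3%) and 4 lower (background 19.2%). Both comparisons share the tumoroid libraries. The difference in Pkm was -0.92 against WT-cM-titled and -1.31 against T-cM-titled organoids, and that in Hk1 was 2.33 and 1.99, on the log2 scale.

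The other genes of the pathway were read from lists. Of the 6 listed genes of the steps between, the 5 tested (Gpi1, Tpi1, Gapdh, Pgk1 and Pgam1, from glucose phosphate isomerase to phosphoglycerate mutase) fell in tumoroids (background 20.8%), with a median log2 fold change of -1.26. Gapdh fell by 1.67 (SE 0.33, adjusted p = 0.0021) and Gpi1 by 1.56 (SE 0.30, adjusted p = 0.002) on the log2 scale. The sugar carriers of the enterocyte fell much further. Slc2a2 (GLUT2, basolateral), Slc2a5 (GLUT5, fructose) and Slc5a1 (SGLT1, sodium-coupled glucose uptake) had log2 fold changes of -7.46, -6.85 and -4.77 (SE 0.53, 0.47 and 0.58), with adjusted p of 5.5e-06, 4.7e-06 and 0.00012. Enterocyte markers moved with them as given above, and their part in the result was not tested.

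**Figure D2:**
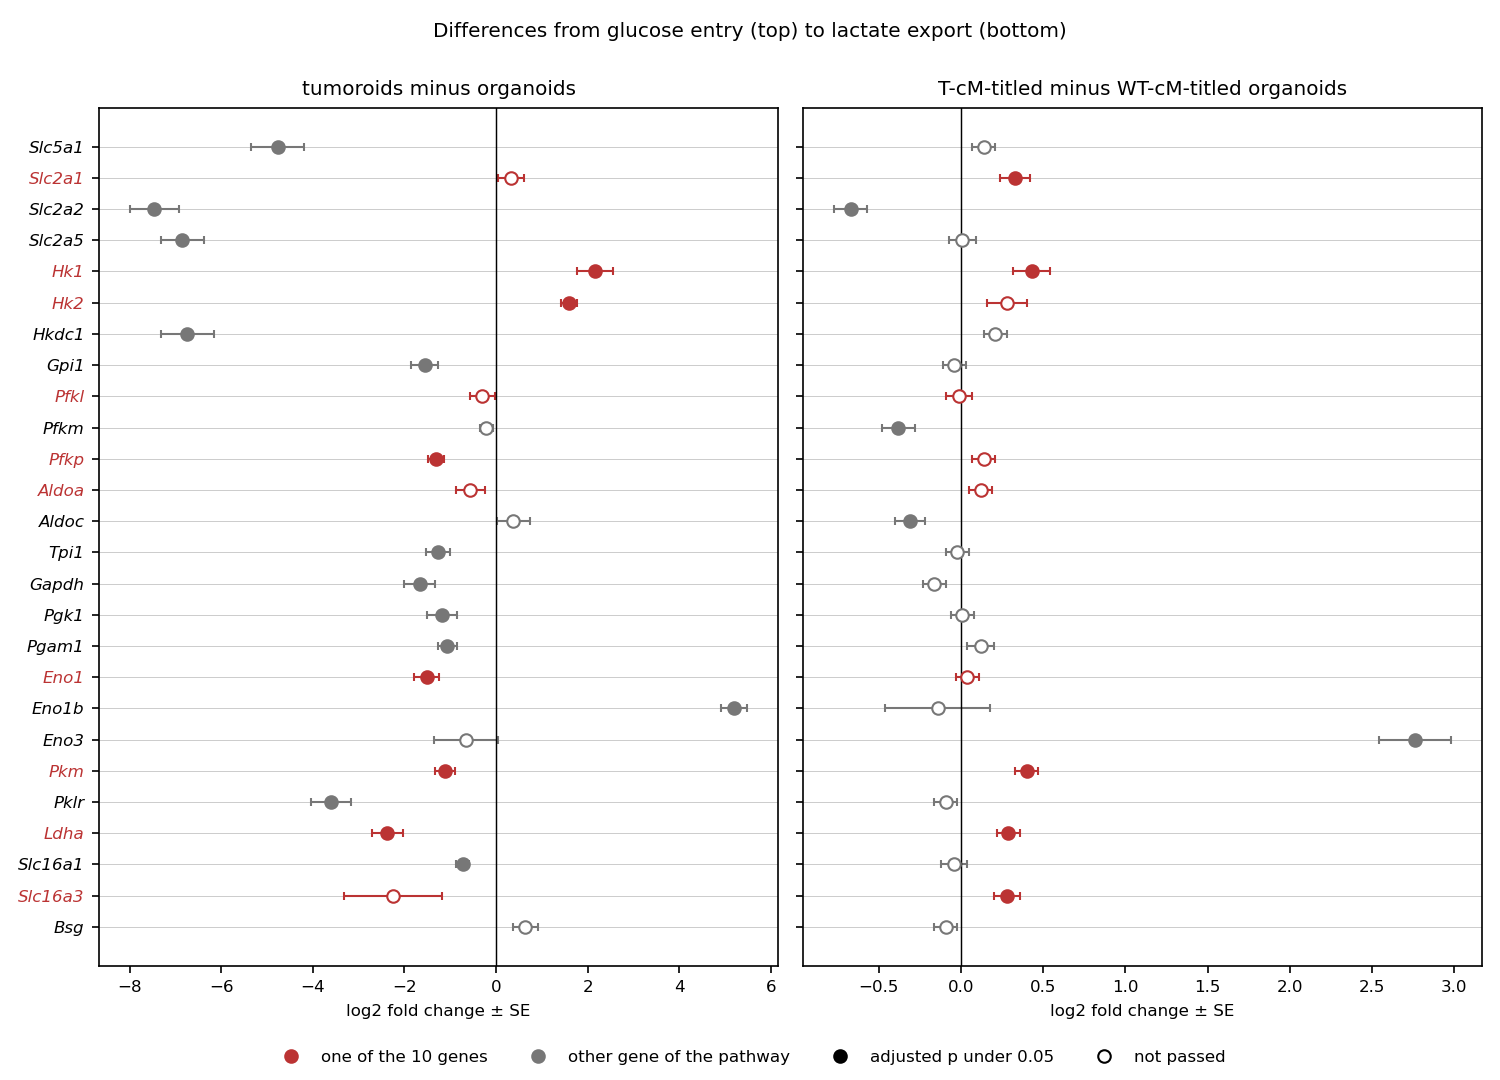
Log2 fold change with its standard error for tested genes from glucose entry (top) to lactate export (bottom), for tumoroids minus organoids (left) and T-cM-titled minus WT-cM-titled organoids (right, another scale). Filled points passed an adjusted p of 0.05 and red marks the 10 genes. On the left Hk1 and Hk2 lie to the right of 0 while Hkdc1, Slc2a2 and Slc2a5 lie beyond -6, and on the right Eno3 stands apart at 2.76.

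The isozymes of the same steps held larger changes. Of 10 tested isozymes, 3 were higher (background 29.6%) and 3 lower (background 20.8%) in tumoroids, with a median log2 fold change of 0.09. Among them, Hkdc1, a hexokinase domain protein of the intestine, fell by 6.74 on the log2 scale (SE 0.58, adjusted p = 1.5e-05), from 190 to 300 TPM in organoids to 5.0, 3.84 and 0.93 TPM in tumoroids. Pklr, the pyruvate kinase of liver and red cells, fell by 3.60 (SE 0.43, adjusted p = 1e-04). Ldhb, the lactate dehydrogenase subunit of oxidative tissues, had 0 to 4 counts per organoid library and 147, 242 and 274 counts in tumoroids (adjusted p = 7.7e-06). Eno2, the neuronal enolase, had 0 or 1 count per organoid library and 32, 130 and 101 counts in tumoroids (adjusted p = 5.6e-05).

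As shares of a step's summed TPM, several of the 10 genes stood higher in tumoroids, also where their own level was not higher. Hk2 made up 2.73% ± 0.679 (SD, n = 6) of hexokinase TPM in organoids and 34.7% ± 7.56 (n = 3) in tumoroids, and Hk1 made up 3.02% ± 1.17 and 59.0% ± 7.73. Hkdc1 made up the bulk in organoids, at 92.8% to 95.1%, and 0.808% to 7.83% in tumoroids. The share of Pkm was 44.9% ± 7.24 and 80.6% ± 8.41 of pyruvate kinase TPM. Slc2a1 held 13.9% ± 3.23 of the TPM of the 5 facilitative transporters Slc2a1 to Slc2a5 in organoids and 95.2% ± 2.52 in tumoroids.

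Pfkp held a lower share in tumoroids, with 45.6% ± 4.23 of phosphofructokinase TPM in organoids and 29.6% ± 6.48 in tumoroids. Ldha held almost all lactate dehydrogenase TPM in both, with Ldhb at 0.00565% ± 0.00462 in organoids and 2.89% ± 1.13 in tumoroids. For the shares of Hk1, Hk2, Pkm, Slc2a1, Pfkp and Ldha the organoid and tumoroid libraries did not overlap, and each exact two-sided permutation test (3 tumoroids against 3 organoid means, 1 per replicate number) gave p = 0.1, the smallest that this design allows. No share can pass a threshold of 0.05 in this design, and adjustment over the 46 share tests run could only raise these values. The share of Slc16a3 among Slc16a1, Slc16a3 and Slc16a7 overlapped, at 12.6% to 55.5% in organoids and 1.41% to 38.9% in tumoroids (p = 0.3, exact permutation test).

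**Figure D3:**
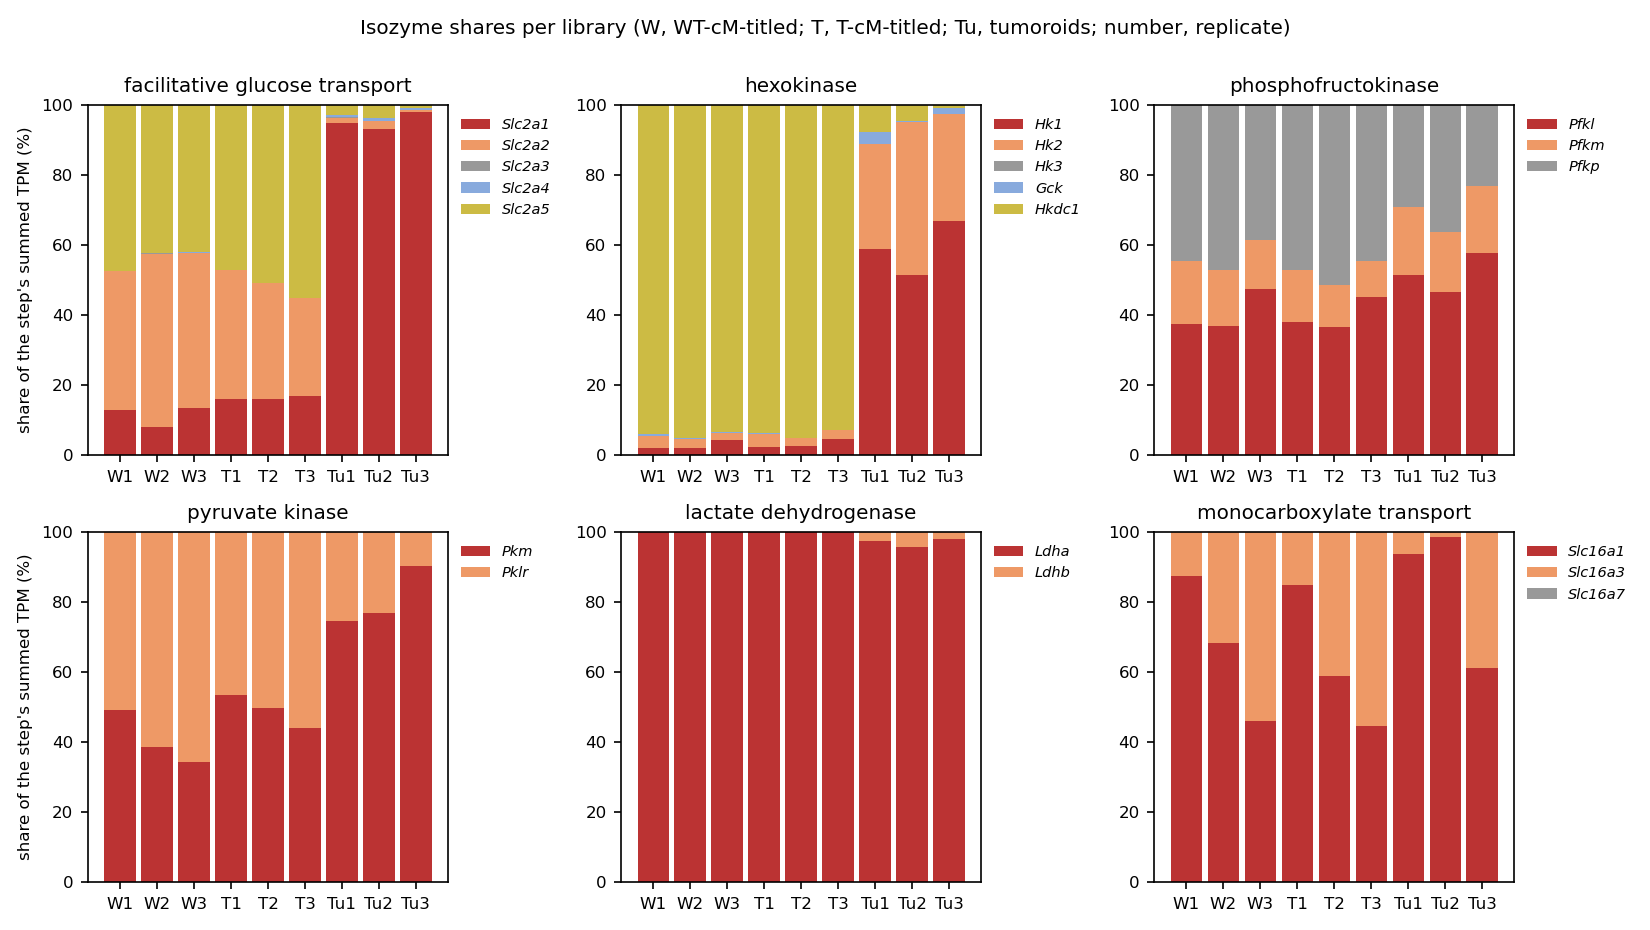
Share of each step's summed TPM held by its isozymes (%, stacked to 100) in each of the 9 libraries, for 6 steps. Hkdc1 fills most of the hexokinase bar in all 6 organoid libraries and Hk1 with Hk2 most of it in the 3 tumoroid libraries, while the share of Slc16a3 differs more between replicate numbers than between the media.

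The TPM of all isozymes was also summed per library for 6 steps. Hexokinase transcripts summed to 202 to 315 TPM in organoids and 63.8, 81.1 and 115 TPM in tumoroids, lower in every tumoroid library although Hk1 and Hk2 were higher. Phosphofructokinase transcripts overlapped between the kinds of culture, at 208 to 299 TPM in organoids and 202, 217 and 283 TPM in tumoroids. Pyruvate kinase summed to 1965 to 3505 TPM in organoids and to 778, 1100 and 1122 TPM in tumoroids. Lactate dehydrogenase summed to 1912 to 3302 TPM in organoids and to 550, 514 and 1074 TPM in tumoroids. Both sums were lower in every tumoroid library than in any organoid library. Facilitative sugar transporters (Slc2a1 to Slc2a5), which carry sugars down their gradient, were also lower in every tumoroid library, although Slc2a1 itself overlapped. They summed to 258 to 495 TPM in organoids and to 60.5, 94.6 and 134 TPM in tumoroids. The fructose carrier Slc2a5 made up 47.6% of this sum in organoids. Monocarboxylate transporters summed to 116 to 171 TPM in organoids and to 70.6, 91.1 and 106 TPM in tumoroids. The 10 genes together summed to 4430 to 7610 TPM in organoids and to 2490, 2870 and 4420 TPM in tumoroids.

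By TPM, Ldha was the most abundant of the 10 genes in every organoid library, at 1912 to 3302 TPM. It catalyses the last step before export. In tumoroids, Aldoa, Pkm and Ldha had means of 952 ± 372, 813 ± 218 and 694 ± 311 TPM (SD, n = 3). Aldoa was above Ldha in 3 of 3 tumoroid libraries, and the place of Pkm differed, with Pkm above Aldoa in replicate 2 and Pkm below Ldha in replicate 3. Hk1 and Hk2 were the lowest in organoids, at 8.0 ± 3.68 and 6.91 ± 1.09 TPM (SD, n = 6). In tumoroids the lowest mean was that of Slc16a3, at 15.7 ± 22.2 TPM, with Hk2 at 29.9 ± 9.17 TPM. In tumoroid replicate 3 the order was turned, with Slc16a3 at 41.2 TPM and Hk2 at 35.1 TPM.

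Genes that steer the pathway were mixed in tumoroids. The counts of each list stand beside 29.6% of all tested genes higher and 20.8% lower. Pfkfb4, an enzyme setting the allosteric activator of phosphofructokinase, fell by 3.02 on the log2 scale (SE 0.30, adjusted p = 3.9e-05), and Pfkfb2 by 1.18 (SE 0.28, adjusted p = 0.0056), while the other 3 genes of that list did not pass. Among 13 regulators 4 were higher and 4 lower, with a median of -0.03. Myc rose 5.18-fold (log2 fold change 2.37, SE 0.26, adjusted p = 6.4e-05), and Hif1a fell by 1.30 (SE 0.27, adjusted p = 0.0027) and Mlxipl, the carbohydrate response factor ChREBP, by 2.54 (SE 0.42, adjusted p = 0.00082). Of 17 HIF targets outside glycolysis, 2 were higher (Ddit4 and Vegfa, by 1.42 and 1.33), 3 were lower (among them Ndrg1 at -2.39 and Higd1a at -1.21) and 12 did not pass.

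Pathways that branch from glycolysis were lower in part. Over all tested genes, 20.8% were lower and 29.6% higher in tumoroids. Of 7 pentose phosphate genes 6 fell, led by Pgd at -2.54 (SE 0.18, adjusted p = 5e-06) and Taldo1 at -1.49 (SE 0.16, adjusted p = 6.1e-05). Of 7 gluconeogenic genes 5 fell, among them G6pc at -8.41 (SE 0.72, adjusted p = 1.6e-05), and 2 rose, among them the mitochondrial Pck2 at 1.68 (SE 0.19, adjusted p = 8.3e-05). Of 14 genes for pyruvate entry into mitochondria 7 fell and 2 rose, and the carrier subunits Mpc2 and Mpc1 fell by 1.56 and 1.04 on the log2 scale. Slc16a1 (MCT1) fell by 0.73 (SE 0.15, adjusted p = 0.0023), and Bsg, the chaperone of both lactate transporters, had a difference of 0.64 that did not pass (adjusted p = 0.086). Of 11 proliferation genes 1 was higher, Mcm2, and their summed level was 381 to 862 TPM in organoids and 624 to 1000 TPM in tumoroids.

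Within the organoids, the question was whether the medium alone moves the pathway in WT cells. With replicate number as a block, Pkm, Ldha, Hk1, Slc2a1 and Slc16a3 were higher in T-cM-titled than in WT-cM-titled organoids, and none was lower (background 5.03% higher and 5.05% lower among all tested genes). The changes were small, at 1.21-fold to 1.34-fold, and none of the 10 genes was past a log2 fold change of 1 (background 1.1%). The median of the 10 genes was 0.28 on the log2 scale, against 0.000 over all tested genes. Of the 10 genes, 7 were higher in 3 of 3 pairs (background 18.9%).

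The largest of these by test was Pkm, with a log2 fold change of 0.40 (SE 0.07, adjusted p = 0.00017). Its log2 ratios of T-cM-titled over WT-cM-titled were 0.29, 0.46 and 0.41 in pairs 1, 2 and 3. The pair ratios of the other genes below are also on the log2 scale. Ldha differed by 0.29 (SE 0.07, adjusted p = 0.0042), with pair ratios of 0.17, 0.36 and 0.29. For Hk1 the difference was 0.43 (SE 0.11, adjusted p = 0.011), and its pair ratios were 0.57, 0.61 and 0.12. Of the 3 pairs, the difference in Hk1 was smallest in pair 3. Slc2a1 differed by 0.33 (SE 0.09, adjusted p = 0.013) with pair ratios of 0.27, 0.48 and 0.21. Slc16a3 differed by 0.28 (SE 0.08, adjusted p = 0.03) with pair ratios of 0.34, 0.34 and 0.12. In each of these 5 genes the T-cM-titled and WT-cM-titled libraries overlapped.

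Hk2 was the only gene of the 10 whose organoid groups did not overlap (background 10.4%), yet it did not pass, with a log2 fold change of 0.28 (SE 0.12, adjusted p = 0.13). Pfkp (0.14, SE 0.07, adjusted p = 0.25), Aldoa (0.12, SE 0.07, adjusted p = 0.34), Eno1 (0.04, SE 0.07, adjusted p = 0.79) and Pfkl (-0.01, SE 0.08, adjusted p = 0.98) did not pass. The interval of 2 SE for Eno1 ran from -0.09 to 0.18, and that for Pfkl from -0.16 to 0.14. The 5 calls rest on the pairing and in part on the tool. With the block kept, DESeq2 lost Hk1 (adjusted p = 0.059) and Slc16a3 (adjusted p = 0.074), limma voom lost these and Slc2a1 (adjusted p = 0.063), and limma on log2(TPM + 1) lost all 5 (adjusted p of 0.28 to 0.29). Slc16a3 also lost its call with edgeR's newer quasi-likelihood method (adjusted p = 0.063). Pkm and Ldha passed with each tool run on the counts of all 6 libraries with the block. Without the block no gene tested passed (smallest adjusted p 0.60, and 904 genes with an unadjusted p under 0.05), and without replicate pair 2 none of the 10 passed (1 gene in all). Without pair 3, Pkm, Hk1 and Slc2a1 passed, and Ldha (adjusted p = 0.14) and Slc16a3 (adjusted p = 0.074) did not. Without pair 1, Slc16a3 just missed the threshold (adjusted p = 0.05 after rounding).

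The enolase step held the largest change of the pathway between the media. Eno3, the muscle enolase, was at 14.4, 13.4 and 12.2 TPM in WT-cM-titled organoids, 34.6, 150 and 125 TPM in T-cM-titled organoids and 11.1, 85.5 and 9.19 TPM in tumoroids. The organoid groups were apart, with a log2 fold change of 2.76 (SE 0.22, adjusted p = 6.6e-10), higher in 3 of 3 pairs. Tumoroid replicate 2 stood apart from the other tumoroids in this gene. Pfkm, the muscle phosphofructokinase, was lower in T-cM-titled organoids by 0.38 (SE 0.10, adjusted p = 0.0091).

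Of the 5 other glycolytic steps none passed between the media by edgeR's quasi-likelihood test, with a median of -0.02. Of these, 1 gene had an unadjusted p under 0.05, namely Gapdh (log2 fold change -0.16, SE 0.07, adjusted p = 0.16). Slc2a2 was lower by 0.67 (SE 0.10, adjusted p = 3.7e-05), and the share of Slc2a1 among facilitative transporters was 16.3% with the T-cM title and 11.5% with the WT-cM title, higher in 3 of 3 pairs. The share of Pkm was 49.0% and 40.8%, also higher in 3 of 3 pairs. For both the exact two-sided sign-flip test gave p = 0.25, the smallest that 3 pairs allow. Gluconeogenic genes were lower in 4 of 7 (background 5.05%), led by Fbp1, which was lower by a fold of 2 (adjusted p = 8.4e-07), and Pck2 at -0.50 (SE 0.09, adjusted p = 0.00068).

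In pentose phosphate metabolism G6pdx and Pgd were higher, by 0.42 and 0.32 on the log2 scale (adjusted p = 0.00059 and 0.0043). Pfkfb3 and Pfkfb2 were higher by 0.49 and 0.37 (adjusted p = 0.0021 and 0.013). Txnip, an inhibitor of glucose uptake, was lower by 0.41 (SE 0.09, adjusted p = 0.0017) and Mlxipl higher by 0.39 (SE 0.09, adjusted p = 0.004). Of 17 HIF targets, 2 were higher and 2 lower, with a median of 0.05, and Ndrg1 was lower by 0.59 (SE 0.08, adjusted p = 7.6e-06) while Ero1l was higher by 0.33 (SE 0.07, adjusted p = 0.0032). Proliferation genes were lower in 8 of 11 (median -0.35), and enterocyte markers were lower in 4 of 8 and higher in 1. These moved with the change in the 10 genes, and their part in it was not tested.

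In an additional test over the 6 organoid libraries, chosen after the data were seen, 9 of the 10 genes differed between replicate numbers at an adjusted p of 0.05 (background 31.8%). The fold between the highest and the lowest number had a median of 1.88 over the 10 genes and 1.36 over all tested genes. Of the 10, Slc16a3 had the largest fold, at 6.05 (adjusted p = 6.4e-17), followed by Hk1 at 2.84 (adjusted p = 1.4e-09). Hk2 did not pass, at 1.13 (adjusted p = 0.60). In the same 9 genes, number 1 was the lowest and number 3 the highest in both organoid groups, an order found in 9.32% of all tested genes. In tumoroids, replicate 3 was the highest library for 9 of the 10 genes (background 36.2%), with Pfkp the exception.

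The other 5 glycolytic steps all differed between numbers in the organoids, with a median fold of 1.66, and all 5 were lowest in number 1 and highest in number 3. Of the HIF targets outside glycolysis, 16 of 17 passed (median fold 1.97), among them, named after their values were seen, Bnip3 (mitophagy) at 7.45 and the collagen prolyl hydroxylases P4ha1 at 6.34 and P4ha2 at 9.96. Bnip3 was at 12.6, 36.0 and 82.1 TPM in WT-cM-titled organoids, 11.7, 29.2 and 80.6 TPM in T-cM-titled organoids and 25.6, 23.3 and 201 TPM in tumoroids. The summed TPM of the 17 targets was 1150 and 1220 in the organoid libraries numbered 1 and 2250 and 2180 in those numbered 3, and in tumoroids it was 1000, 1150 and 3170.

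The other lists were read against the same background of 31.8% passing and a median fold of 1.36. Of 11 proliferation genes 10 passed, with a summed TPM of 862 and 754 in the libraries numbered 1, against 381 to 518 in the other organoid libraries. Enterocyte markers passed in 7 of 8 and summed to 27700 and 29000 TPM in number 1, against 35200 to 61300 TPM in the others. Mitochondrial pyruvate entry passed in 6 of 14 and pentose phosphate genes in 4 of 7, with median folds of 1.18 and 1.20, below that of all tested genes. The part of proliferation and enterocyte genes in the differences of the 10 genes was not tested.

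**Figure D4:**
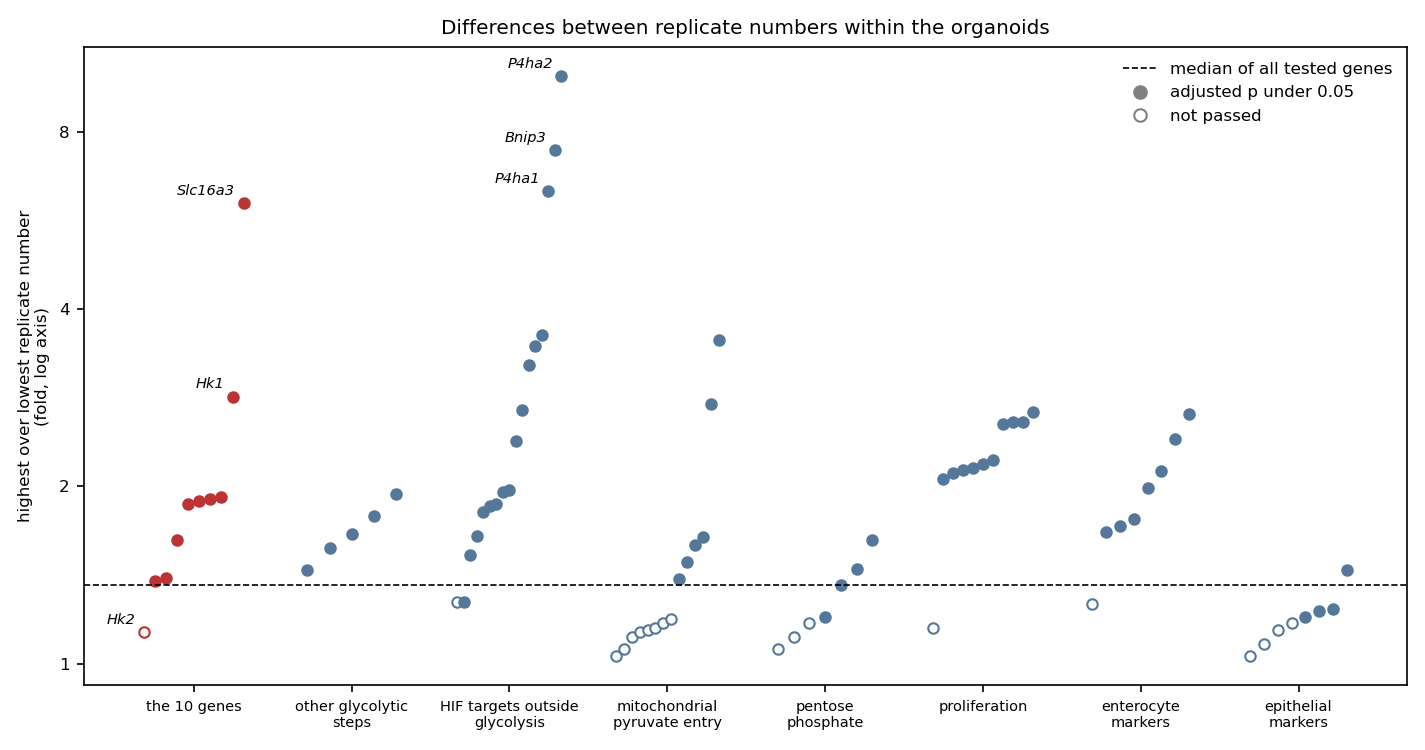
Fold between the highest and the lowest replicate number in the 6 organoid libraries (log axis) for each tested gene of 8 lists. Filled points passed an adjusted p of 0.05 and the dashed line is the median of all tested genes, 1.36. Of the 10 genes 9 lie above that line, Slc16a3 at 6.05, and Hk2 below it at 1.13.

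In genome position (mm10, GRCm38, Gencode release 21), all 10 are protein-coding genes on 7 chromosomes. Slc2a1 (chr4:119108711-119137983) and Eno1 (chr4:150236721-150248879) share chromosome 4, Ldha (chr7:46841475-46855627) and Aldoa (chr7:126795234-126800751) chromosome 7, and Hk1 (chr10:62268855-62379908) and Pfkl (chr10:77986947-78010083) chromosome 10. Hk2 lies at chr6:82725025-82774454, Pkm at chr9:59656368-59679375, Slc16a3 at chr11:120948480-120960868 and Pfkp at chr13:6579768-6648777. The identifier version in the count table was the same for 8 of the 10 and differed for Pfkp and Aldoa.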

How the data were processed

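PolyA-selected RNA was sequenced with a stranded kit. The authors aligned reads to mm10 with STAR and, per their methods, counted reads over Gencode release 13 to make the raw count table. The counting tool was not given in the sources used here. The deposited TPM table was used for filtering, for levels between genes and for isozyme shares. All 3 tumoroid comparisons were fitted together with edgeR's quasi-likelihood test (edgeR 4.0.16, R 4.3.3) on TMM-normalised counts of the 16208 genes that reached a TPM of 1 in any library. These fits held no block, so same-numbered organoid libraries counted as separate libraries. With those libraries summed, 2 members were higher and 4 lower against both organoid groups, and 6281 of all tested genes passed in place of 8165. The organoid groups were fitted alone with replicate number as a block, as same-numbered organoid libraries deviated together (r = 0.688, 0.497 and 0.70). Benjamini-Hochberg adjustment ran over all tested genes, at a threshold of 0.05. On simulated counts of the tumoroid design, 49% of genes changed by a log2 of 1 and 90% of those changed by 2 were recovered, and 12.6% of the calls were genes not changed in the simulation. For the organoid design these were 100% at both sizes and 5.66%. Both shares of unchanged genes among the calls were above the threshold of 0.05. Changes below a log2 of 1, such as those of the members between the organoid groups, were not simulated, so their recovery is not known. Isozyme shares were compared by exact permutation tests in SciPy 1.17.1. Alternatives used DESeq2 1.42.0, limma 3.58.1 (voom, and log2(TPM + 1)), other factors and filters, and left-out libraries. In each other list, up to 4 genes with the smallest p were named for tumoroids and up to 2 for the organoid comparison. The members and lists were chosen with earlier results of these data known. Floors cover counting error only. Some genes of the lists are not reported here.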

Additional observations from a re-analysis of the deposited data

How the results depend on the processing

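Of 704 values of single genes under alternative settings, 650 kept direction and call, 25 lost the call, 20 gained it and 9 turned direction. The 6 calls of tumoroids against organoids (Hk1, Hk2, Pfkp, Eno1, Pkm and Ldha) held under every setting run, as they did against each organoid group apart from Pkm against WT-cM-titled on TPM (-0.40, adjusted p = 0.15). Against both organoid groups, 6 to 9 of the 10 genes passed across settings, where 6085 to 9614 of all tested genes passed. With limma on log2(TPM + 1), Pfkl was 0.24 against each reference, Aldoa against WT-cM-titled organoids was 0.02, the median of all genes was 0.518 in place of 0.165, and 79.8% of the genes passing were higher in place of 58.7%. Leaving out single libraries gave -0.02 to 0.54 for Slc2a1 against both organoid groups and -0.18 to 0.39 against the T-cM-titled group, and -0.58 to 0.02 for Pfkl against the WT-cM-titled group. In these comparisons same-numbered tumoroids and organoids did not deviate together (r from -0.0558 to 0.235), so the numbers do not pair them, and a replicate block gave 9 of the 10 genes passing against both groups, 9 against WT-cM-titled and 8 against T-cM-titled, where 9008, 7770 and 8171 of all 16208 genes passed. Against both groups the genes it added were Slc2a1 (0.31, adjusted p = 0.022), Aldoa (-0.57, adjusted p = 0.012) and Slc16a3 (-2.76, adjusted p = 0.01). Without all 3 libraries numbered 3, a setting chosen after seeing the data, 7 of the 10 genes passed against both groups, where 6085 of all 16208 genes passed. Between the organoid groups, 5 genes of the 10 and 1634 of all passed at an adjusted p under 0.05, and 179 of all also had a log2 fold change above 1 in size. In that order the numbers were 3, 794 and 93 with DESeq2, 2, 577 and 118 with limma voom, 0, 0 and 0 with limma on log2(TPM + 1), and 0, 0 and 0 with no replicate block, where 904 genes had an unadjusted p under 0.05. The newer quasi-likelihood method gave 1048 genes of all at the adjusted p alone. Leaving out replicate pairs gave 0 to 4, 1 to 2872 and 1 to 385, and -0.09 to 0.05 for Pfkl. The share of Ldha in lactate dehydrogenase differed by -1.39 points on raw counts and -2.89 points on TPM. The cause of these changes was not tested. A count of 3 corresponds to 0.103 to 0.204 CPM, which limits Ldhb and Eno2 in organoids.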
